A study of Mus musculus with 4 samples.

Results

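Transthyretin, encoded by Ttr, and 9 further genes linked to the choroid plexus (Rbp4, Folr1, Lbp, Kl, Ace, Car14, Calml4, Msx1 and Six2) were followed in the mouse hippocampus. The choroid plexus is a vascular tissue with an epithelial cover that projects into the brain ventricles and secretes cerebrospinal fluid. All 10 genes were on the array, as 13 of its 12422 probe sets other than manufacturer's controls and 10 of the 8251 genes paired singly with a probe set. Each probe set pools the readings of several short oligonucleotides to 1 transcript. The genes were picked because their signals on these same 4 arrays go up and down together, with the difference between APPSw and control in view, so their levels are given as a description, without a test.

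Males of 12 months were profiled in the left hippocampus, 1 mouse per array. APPSw mice (APPSw 1 and APPSw 2) are the Tg2576 line, which overexpresses amyloid precursor protein carrying the Swedish mutation. Their controls (control 1 and control 2) are nontransgenic C57B6/SJL mice. As background, the Tg2576 transgene is driven by a hamster prion protein promoter, and the line deposits amyloid in cortex and hippocampus with age. The labels give no strain for the APPSw animals, and nothing says that the mice of a group were littermates. Values are MAS 5.0 signals, scaled by the authors to 2500 on each array, and the number of arrays, 2 per group, limits every comparison. Median signals of the arrays lay between 926.3 and 1033.4. Snap25 and Gria2, genes of neuronal synapses, were bright on all 4 arrays (79861 to 83271 and 45557 to 58914).

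Transthyretin carries thyroxine and binds retinol-binding protein. In the brain it is made chiefly by choroid plexus epithelium, which secretes it into the cerebrospinal fluid, and transthyretin binds amyloid beta. The same epithelium takes up folate through folate receptor alpha, carries the co-receptor alpha-klotho, and drives fluid secretion with carbonic anhydrases and ion transporters. In a bulk dissection of hippocampus, more cells of a type and more RNA per cell cannot be told apart.

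The promoter windows of the 3 genes with the largest excess on APPSw 1 that have a window (Calml4, Six2 and Kl), and those of Car14 and the upstream start of Ace, are shown because these genes share an array pattern. Each window runs from 250 bases before the start of transcription to 50 after it (RefSeq, GRCm38.p6), 5′ to 3′ along the gene. Windows of 7 of the 10 genes were used, 9 windows in all. Folr1 and Lbp have no entry in the table, and the window of Ttr was not used here. Capitals mark matches on either strand to TAATCC, the letters bound by homeodomain factors of the OTX group such as OTX2. They also mark the CCAAT box of many promoters, the site GGGCGG that the general activator Sp1 binds, and the core promoter element TATAAA.
Calml4, chr9:62857854-62858153, plus strand: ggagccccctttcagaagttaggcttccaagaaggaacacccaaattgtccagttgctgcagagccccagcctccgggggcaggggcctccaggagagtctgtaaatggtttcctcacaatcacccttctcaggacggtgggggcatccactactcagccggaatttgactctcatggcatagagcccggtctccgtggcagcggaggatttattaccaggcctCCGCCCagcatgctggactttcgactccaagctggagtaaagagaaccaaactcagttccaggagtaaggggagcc
Six2, chr17:85688205-85688504, minus strand: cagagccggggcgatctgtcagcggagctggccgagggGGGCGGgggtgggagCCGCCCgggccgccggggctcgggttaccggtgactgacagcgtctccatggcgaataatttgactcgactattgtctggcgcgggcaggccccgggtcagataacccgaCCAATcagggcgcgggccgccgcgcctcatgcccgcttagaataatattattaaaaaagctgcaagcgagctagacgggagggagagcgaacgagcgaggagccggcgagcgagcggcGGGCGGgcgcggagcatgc
Kl, chr5:150952357-150952656, plus strand: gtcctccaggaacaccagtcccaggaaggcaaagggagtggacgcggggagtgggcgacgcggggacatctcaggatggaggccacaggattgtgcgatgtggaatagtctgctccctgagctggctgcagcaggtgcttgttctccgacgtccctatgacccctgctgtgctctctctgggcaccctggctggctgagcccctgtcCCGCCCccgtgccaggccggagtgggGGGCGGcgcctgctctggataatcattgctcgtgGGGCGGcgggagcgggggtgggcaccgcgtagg
Car14, chr3:95904636-95904935, minus strand: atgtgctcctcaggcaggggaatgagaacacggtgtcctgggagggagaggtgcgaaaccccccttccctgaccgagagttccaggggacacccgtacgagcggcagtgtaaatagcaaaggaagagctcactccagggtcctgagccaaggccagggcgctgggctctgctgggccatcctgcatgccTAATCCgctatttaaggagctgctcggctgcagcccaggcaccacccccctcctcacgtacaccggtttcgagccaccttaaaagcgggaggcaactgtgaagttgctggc
Ace, chr11:105967698-105967997, plus strand: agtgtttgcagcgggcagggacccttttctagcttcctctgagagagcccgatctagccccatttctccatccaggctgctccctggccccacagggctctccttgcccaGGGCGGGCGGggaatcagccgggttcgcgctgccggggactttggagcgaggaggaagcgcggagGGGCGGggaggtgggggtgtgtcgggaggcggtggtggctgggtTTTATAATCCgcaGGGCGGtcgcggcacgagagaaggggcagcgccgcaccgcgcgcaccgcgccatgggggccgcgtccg

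TAATCC stood in 2 of the 9 windows, at base 190 of the Car14 window and at base 224 of the Ace window, and in 7.06% of all 32851 windows in the table. In Ace it overlaps the complement of TATAAA at base 220. GGGCGG was found in 6 of the 9 windows and in 35.7% of all windows. CCAAT was found in 4 of the 9 (37.4% of all), and TATAAA in 2 of the 9 (13.6% of all). No motif was shared by all of the windows. Matches are letters in a window and do not show binding.

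Ttr had the widest spread of the 10 genes. Its signal was 83384 in APPSw 1 and 3236 in APPSw 2, against 8908 in control 1 and 1896 in control 2. APPSw 2 thus lay between the controls, and the groups overlapped. APPSw 1 stood 20.3-fold above the control mean, and APPSw 2 at 0.787 of it, where the control mean behind a fold is always the geometric one. The controls themselves differed 4.70-fold. The arithmetic means of the groups were 43310 ± 56674 in APPSw mice and 5402 ± 4958 in controls (SD, n = 2 each). The difference between mean log2 signals, 2.00, was smaller than the pooled SD of 2.60 between arrays of a group, and without APPSw 1 it was -0.34.

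Rbp4, the plasma carrier of retinol that travels bound to transthyretin, did not follow Ttr closely. It had 1758 and 1311 in APPSw 1 and 2, against 845.8 and 863.6 in controls 1 and 2. Both APPSw arrays were above both controls, and the controls were almost equal. Its log2 difference was 0.83, with a pooled SD of 0.21, and it was the gene with the highest value on APPSw 2 relative to the controls (1.53-fold). Its excess on APPSw 1 was 2.06-fold.

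Folr1, which encodes folate receptor alpha, followed Ttr most closely. Its brighter probe set read 4733 and 953.5 in APPSw 1 and 2, against 1238 and 453.9 in controls 1 and 2, the same order of arrays as Ttr. The excess on APPSw 1 over the control mean was 6.31-fold, and control 1 was 2.73-fold above control 2. A dimmer probe set read 858.2 and 105.1 in APPSw 1 and 2, against 128.9 and 145.3 in controls 1 and 2, with an excess of 6.27-fold on APPSw 1 but control 1 not above control 2. Both probe sets thus put APPSw 1 highest, while they differ on the order of the other arrays.

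Lbp encodes the lipopolysaccharide-binding protein, a secreted lipid carrier of innate immunity. Its signal was 4992 and 1362 in APPSw 1 and 2, against 953.6 and 1502 in controls 1 and 2. APPSw 1 was 3.32-fold above the next array, which was control 2, so Lbp ordered the controls the other way round from Ttr. Its log2 difference was 1.12, with a pooled SD of 0.99, and it was 0.19 without APPSw 1 and 2.06 without APPSw 2.

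Membrane proteins with an enzyme or co-receptor role came next. Kl, alpha-klotho, the co-receptor for the hormone FGF23, had 5115 and 749.9 in APPSw 1 and 2, against 1591 and 989.5 in controls 1 and 2. APPSw 1 was the highest and APPSw 2 the lowest of the 4, so the APPSw arrays lay on either side of both controls. The log2 difference of 0.64 had a pooled SD of 1.43, and without APPSw 1 it was -0.74.

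Ace, angiotensin-converting enzyme, was split in the same way. Its brightest probe set read 1979 and 177.9 in APPSw 1 and 2, against 673.9 and 595.0 in controls 1 and 2. APPSw 1 was 3.13-fold above the control mean and APPSw 2 at 0.281 of it, which gave a log2 difference of -0.09 (pooled SD 1.74), the only value below 0 among the 10 genes, and it was -1.83 without APPSw 1 and 1.64 without APPSw 2. Its 2 other probe sets were dim. One read 422.7 and 244.6 in APPSw 1 and 2, against 269.0 and 124.2 in controls 1 and 2. The other read 119.4 and 333.3 in APPSw 1 and 2, against 60.1 and 271.7 in controls 1 and 2, and was brightest in APPSw 2. The 3 probe sets of Ace therefore did not give the same picture.

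Car14, carbonic anhydrase 14, a membrane enzyme that interconverts carbon dioxide and bicarbonate, had 4659 and 1889 in APPSw 1 and 2, against 2219 and 2142 in controls 1 and 2. The controls differed only 1.04-fold, APPSw 1 was 2.14-fold above their mean, and APPSw 2 was below both. The log2 difference was 0.44 (pooled SD 0.65), and -0.21 without APPSw 1.

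Calml4 encodes a protein related to calmodulin, the calcium sensor. Its signal was 4152 and 810.5 in APPSw 1 and 2, against 810.5 and 688.9 in controls 1 and 2. Only APPSw 1 stood apart, 5.12-fold above the next array, and APPSw 2 equalled control 1. The log2 difference was 1.30, with a pooled SD of 1.18, and it was 0.12 without APPSw 1 and 2.47 without APPSw 2.

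The homeobox transcription factors Msx1 and Six2, known from craniofacial and kidney development, are not transport genes. Msx1 had 2387 and 1317 in APPSw 1 and 2, against 1208 and 1248 in controls 1 and 2, and its excess on APPSw 1 was the smallest of the 10 (1.94-fold). Six2 had 2049 and 444.1 in APPSw 1 and 2, against 376.0 and 394.3 in controls 1 and 2. For both genes the APPSw arrays were above both controls, although APPSw 2 was by only 1.07-fold for Msx1 and 1.15-fold for Six2 over the control mean. The 3 lower Six2 arrays were all under 565, the signal below which probe sets were left out of the comparison across genes, so Six2 passed that filter through APPSw 1 alone. The mean log2 signal of Ace over its 3 other arrays (177.9, 673.9 and 595.0) was also below that cut, so Ace too passed only with APPSw 1.

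**Figure D1:**
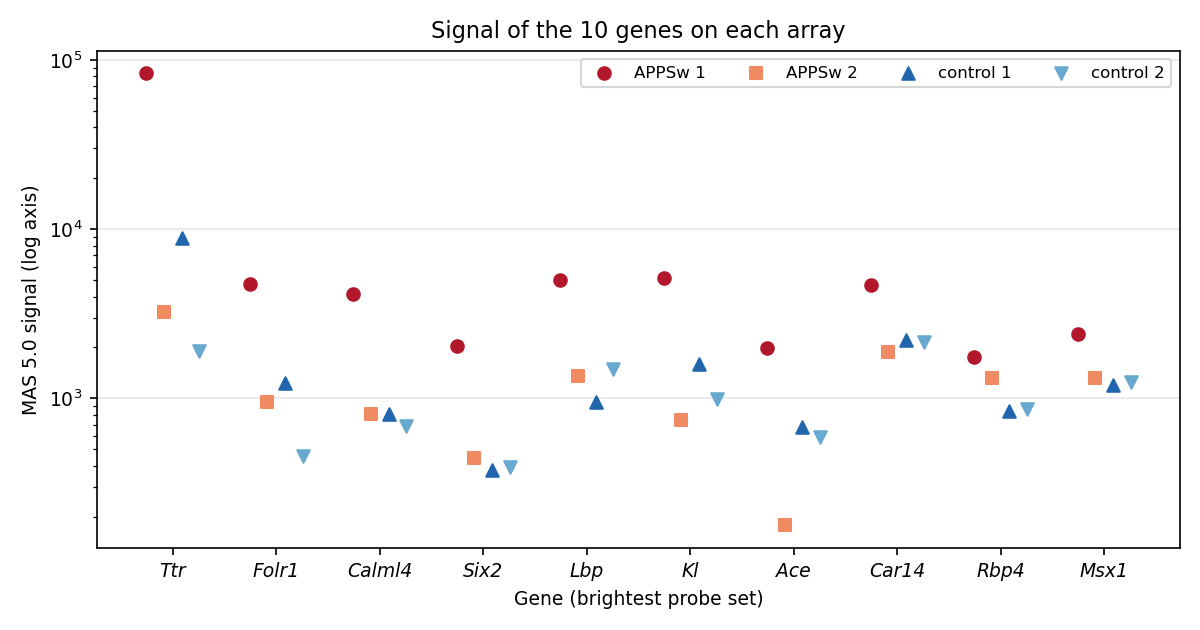
Signal (MAS 5.0, log axis) of the brightest probe set of each of the 10 genes on APPSw 1, APPSw 2, control 1 and control 2, 1 point per array, with genes ordered by their excess on APPSw 1. APPSw 1 is the highest point for every gene, from 1758 for Rbp4 to 83384 for Ttr, while APPSw 2 lies among or near the controls for most.

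Over the 10 genes, APPSw 1 was the brightest array for 10 and at least 2-fold above every other array for 8, all but Rbp4 and Msx1. Over the 7453 probe sets above the filter, 27.2% were brightest on APPSw 1 and 0.389% were at least 2-fold above every other array there. APPSw 2 was the brightest array for 28.8% of probe sets, control 1 for 20.2% and control 2 for 23.9%. The shares at least 2-fold above every other array were 0.107% for APPSw 2, 0.0403% for control 1 and 0.0537% for control 2. Both APPSw arrays lay above both controls for 3 genes (Rbp4, Msx1 and Six2), against 22.2% of probe sets, and both lay below for 0 genes (19% of probe sets). APPSw 2 was under both controls for 3 (Kl, Ace and Car14), against 35.2% of probe sets. These counts describe genes chosen for this pattern, and Ace and Six2 passed the filter only with APPSw 1.

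The 2 APPSw arrays differed more than the groups did. The median of the 10 genes was 4.12-fold above the control mean in APPSw 1 and 1.08-fold in APPSw 2. On the log2 scale the median difference between APPSw and control was 0.98, with 9 genes above 0 and 1 below, and it was 0.11 without APPSw 1 and 2.04 without APPSw 2. Over all probe sets above the filter the median difference was 0.02, with 3927 above 0 and 3526 below. The difference exceeded the pooled SD between arrays of a group for 6 of the 10 genes, a share near the 50.5% of all 7453 probe sets for which it did. With 2 arrays in each group, the smallest p that an exact two-sided permutation test allows is 0.333.

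**Figure D2:**
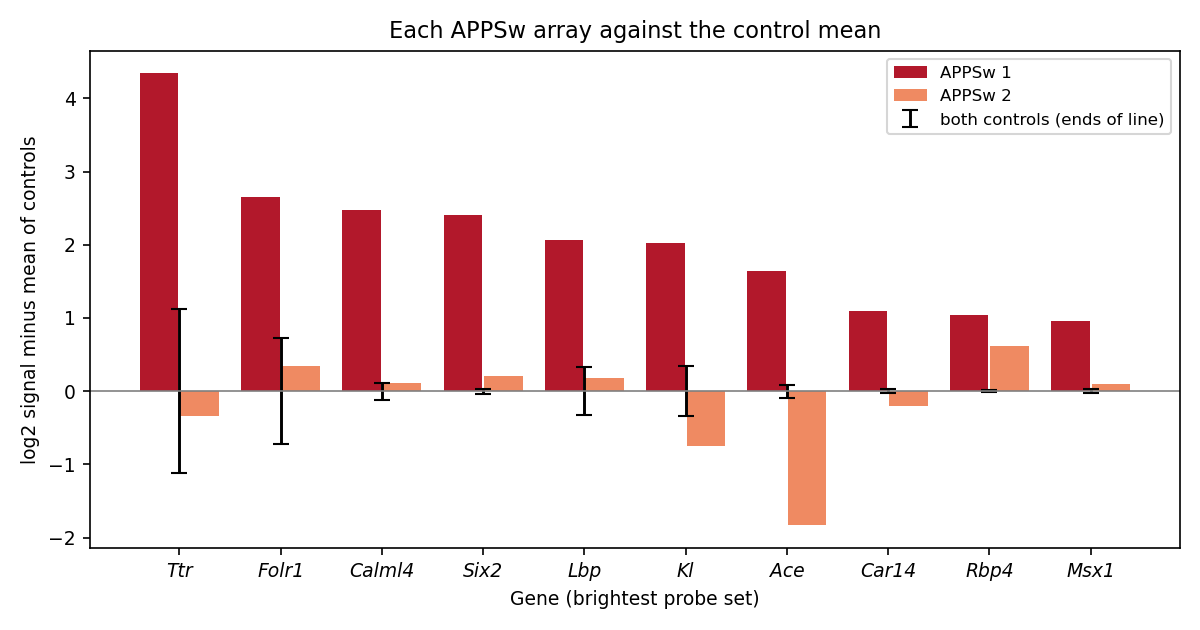
Log2 signal of APPSw 1 (dark bars) and APPSw 2 (light bars) minus the mean of the controls for each of the 10 genes, with black lines whose ends are the 2 control arrays. Every dark bar is above its control line, from 0.96 for Msx1 to 4.34 for Ttr, whereas the light bars run from -1.83 for Ace to 0.62 for Rbp4.

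Set among all probe sets, Ttr had the largest excess on APPSw 1 over the control mean (rank 1 of 7453), Folr1 the next (rank 2), Calml4 rank 4 and Six2 rank 6. Lbp and Kl had ranks 11 and 12, Ace rank 23, Car14 rank 83, Rbp4 rank 105 and Msx1 rank 138. On APPSw 2 the same genes ran from -1.83 for Ace and -0.74 for Kl to 0.62 for Rbp4 on the log2 scale, relative to the control mean.

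**Figure D3:**
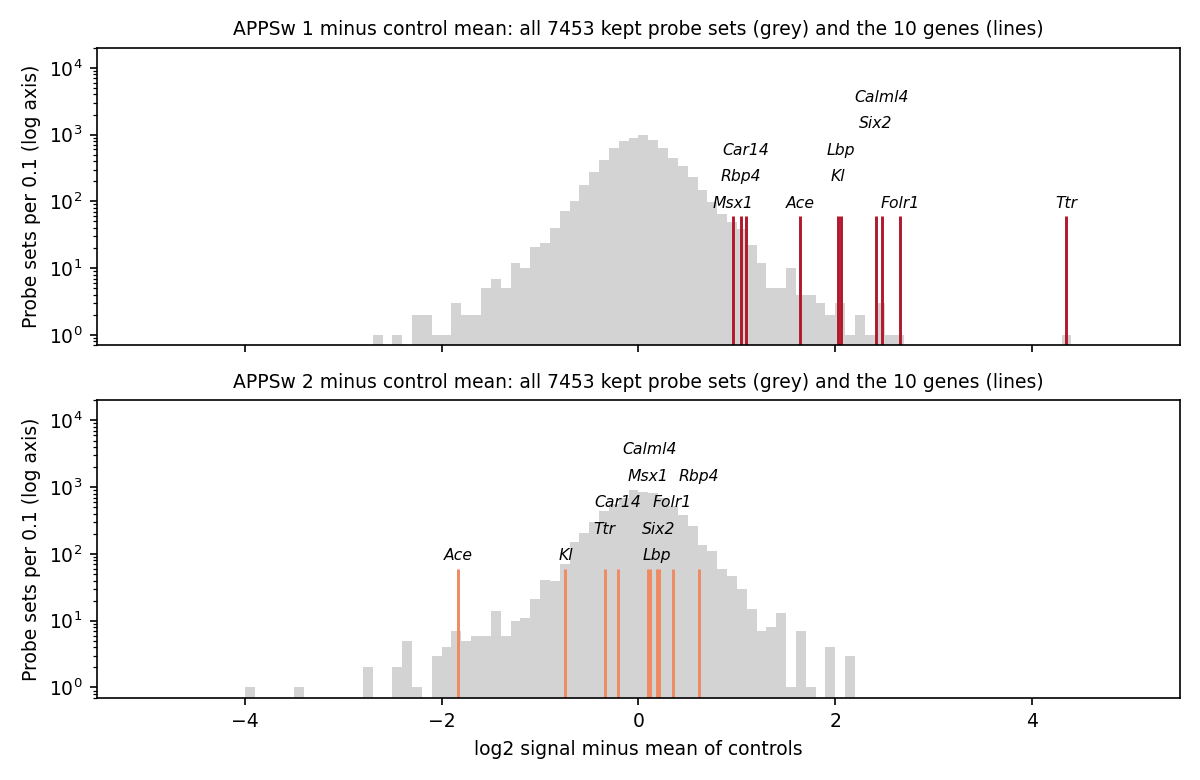
Histograms (bins of 0.1, log vertical axis) of log2 signal minus the control mean for the 7453 probe sets above the filter, on APPSw 1 (top) and APPSw 2 (bottom), with coloured lines at the 10 genes. On APPSw 1 the genes lie on the right flank up to 4.34, and on APPSw 2 they are spread on both sides of 0.

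Correlations of log2 signal over the 4 arrays were high but rested on APPSw 1. Pearson's r with Ttr was 0.98 for Folr1, 0.96 for Kl, 0.946 for Calml4 and 0.93 for Car14. It was 0.91 for Six2, 0.90 for Msx1, 0.79 for Ace, 0.79 for Lbp and 0.71 for Rbp4. Over the 45 pairs of genes the median r was 0.90, and the lowest was 0.30. On the 3 arrays left without APPSw 1, r with Ttr was 0.90 for Folr1 (-0.20 for its dimmer probe set), 0.76 for Calml4 and 0.75 for Kl. It was below 0 for 4 of the 9 other genes (Rbp4, Lbp, Msx1 and Six2), and the median over pairs was -0.06, with 24 of 45 pairs below 0. Without APPSw 1 the 10 genes thus no longer ran together as a set. Of 5669 genes compared with Ttr, 2.15% had r of at least 0.95 over the 4 arrays, and 2 of the 9 did.

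The 8 other genes nearest to Ttr were found by the distance between log2 profiles over the 4 arrays, each centred on its own mean. Folr1 (distance 1.84), Kl (2.21) and Calml4 (2.28) were nearer than any gene outside the 10. Next came Ube2c (2.47), a ubiquitin-conjugating enzyme of mitosis, and Cdkn1c (2.57), a cell cycle inhibitor. Igfbp2 (2.71) and Igf2 (2.78), of the insulin-like growth factor system, followed. Pspn (2.82), a GDNF family ligand, Bmp6 (2.85), a bone morphogenetic protein, and the pituitary hormone genes Gh (2.89) and Prl (2.96) completed the set.

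Cdkn1c had 2225 and 526.1 in APPSw 1 and 2, against 471.1 and 477.8 in controls 1 and 2, and like Calml4 it stood apart on APPSw 1 only. Igf2 had 30368 and 9464 in APPSw 1 and 2, against 7895 and 7724 in controls 1 and 2. Its dimmer probe set, under the filter, had 210.3 and 57.7 in APPSw 1 and 2, against 98.1 and 179.8 in controls 1 and 2. A dimmer Bmp6 probe set, also under the filter, had 512.7 and 292.0 in APPSw 1 and 2, against 179.5 and 523.1 in controls 1 and 2. It was brightest in control 2. Gh, growth hormone, had 12054 and 3330 in APPSw 1 and 2, against 1820 and 2800 in controls 1 and 2. Prl, prolactin, had 1403 and 546.1 in APPSw 1 and 2, against 525.1 and 437.9 in controls 1 and 2. The hormone genes, which are not choroid plexus markers, were thus also highest on APPSw 1, and the part of other tissue in the results for the 10 genes was not tested. Outside APPSw 1, Cdkn1c and Prl lay under the filter signal of 565 on every array, so they entered this search through APPSw 1 alone. Ube2c, with 653.3 in APPSw 2 and 768.3 and 216.0 in controls 1 and 2, also averaged below it on log2 without APPSw 1.

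A list of 48 further markers of choroid plexus epithelium, without the 10 genes, had 26 on the array and 11 above the filter. The limma fit called 0 of the 11 higher and 0 lower at an adjusted p under 0.05, as it did for 0% of the 7453 probe sets in each direction. At an unadjusted p under 0.05 there were 1 of the 11 (Cox8b, named after its values were seen) and 600 of all probe sets. Of the 11, 10 had a difference above 0 (3927 of the 7453 probe sets did), with a median of 0.38 (0.02 over all probe sets). All 11 were brightest on APPSw 1, as were 27.2% of all probe sets above the filter. The median of the 11 over the control mean was 0.90 on APPSw 1 and -0.02 on APPSw 2. These 11 markers were thus highest on the same array as the 10 genes. Without the filter, 22 of the 26 on the array were brightest on APPSw 1, as were 29.8% of all probe sets. The list was chosen with earlier results of these data known, and the filter's mean signal includes APPSw 1. The counts are therefore a description, and the part of these markers in the values of the 10 genes was not tested.

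Named by brightness, Igf2 had a log2 difference of 1.12 (SE 0.52, limma adjusted p = 0.612) and Igfbp2, a binding protein for it, 0.64 (SE 0.61, limma adjusted p = 0.773). Vamp8, a vesicle fusion protein, differed by 0.37, Cab39l, a kinase scaffold, by 0.48 and Slc31a1, the copper importer, by 0.41. Car12, another membrane carbonic anhydrase, had 3466 and 1980 in APPSw 1 and 2, against 2429 and 2836 in controls 1 and 2, a difference of -0.0027. Like Car14 it was highest on APPSw 1 and lowest on APPSw 2.

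Another 15 of the 26 markers were too dim on average to pass the filter, yet 11 of them were brightest on APPSw 1 and 6 were at least 2-fold above every other array there. Without the filter those shares were 29.8% and 2.33% of all probe sets. These 6 are named after their values were seen. Rdh5, a retinol dehydrogenase, had 2915 and 223.6 in APPSw 1 and 2, against 346.2 and 285.5 in controls 1 and 2. Abca4, a retinoid transporter, had 2579 and 155.4 in APPSw 1 and 2, against 333.1 and 244.5 in controls 1 and 2. Slc4a5, a sodium bicarbonate cotransporter, had 1560 and 31.0 in APPSw 1 and 2, against 322.4 and 17.7 in controls 1 and 2. Each was bright on APPSw 1 alone. Wfdc2, F5 (coagulation factor V) and Col8a1, a collagen, read 1571, 1060 and 1657 on APPSw 1, and no more than 530.0 on any other array. Not all of the markers were highest on APPSw 1, as for this pair, also named after their values were seen. Aqp1, the water channel of the epithelium, had 151.5 and 133.1 in APPSw 1 and 2, against 168.6 and 551.0 in controls 1 and 2, and Htr2c, a serotonin receptor, lay between 227.5 and 258.9 on all arrays.

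Markers of neighbouring tissue were read beside the 10 genes. Over all probe sets above the filter, 27.2% were brightest on APPSw 1. Of 7 ependymal markers above the filter, 5 were brightest on APPSw 1, and their summed signal was 25728 and 19295 in APPSw 1 and 2, against 24215 and 21454 in controls 1 and 2. Of 14 markers of meninges and fibroblasts, 7 were brightest on APPSw 1, and the sum was 111370 and 81086 in APPSw 1 and 2, against 69584 and 82665 in controls 1 and 2. Their brightest gene, Ptgds, a prostaglandin synthase of the leptomeninges, had 61773 and 35415 in APPSw 1 and 2, against 33232 and 37954 in controls 1 and 2. The sum for the 11 choroid plexus markers was 67918 and 28103 in APPSw 1 and 2, against 28508 and 26969 in controls 1 and 2. APPSw 1 therefore had the highest sum in all of these lists, with the widest gap for choroid plexus. The sums lean on single bright genes. On APPSw 1, Igf2 gave 30368 of the choroid plexus sum and Ptgds 61773 of the meningeal sum. Mia is in both the choroid plexus and the ependymal list.

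Other lists ran differently, read beside the 27.2% of all probe sets that were brightest on APPSw 1. Of 9 endothelial and mural markers, 2 were brightest on APPSw 1, with sums of 12642 and 13164 in APPSw 1 and 2, against 15700 and 13559 in controls 1 and 2. Of 2 erythrocyte markers, 0 were brightest on APPSw 1, and Hba-a1, an alpha globin, had 11324 and 19525 in APPSw 1 and 2, against 8678 and 10811 in controls 1 and 2. Of 20 hippocampal neuron markers, 2 were brightest on APPSw 1, with sums of 327263 and 313233 in APPSw 1 and 2, against 358816 and 365054 in controls 1 and 2. Of these 20, 17 had a difference below 0 (median -0.27), as had 3526 of the 7453 probe sets above the filter. At an unadjusted limma p under 0.05 there were 5 of the 20 and 600 of the 7453. No cell type list had a marker past the limma test. The part of these cell types in the values of the 10 genes was not tested.

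Other genes of the same pathways were read from 8 lists, and none passed the limma test. Of all 7453 probe sets above the filter, 3927 lay above 0, and 27.2% were brightest on APPSw 1. For thyroid hormone and retinoid handling, the pathway of Ttr and Rbp4, 0 of 13 genes above the filter were called in either direction, 8 lay above 0, and the median difference was 0.05. Thra, the thyroid hormone receptor alpha, had 59601 and 52197 in APPSw 1 and 2, against 68195 and 73359 in controls 1 and 2, a difference of -0.34 (SE 0.18, limma adjusted p = 0.620). Slc3a2, a subunit of amino acid carriers, differed by 0.098, and Lrp1, a lipoprotein and clearance receptor, by -0.09. For folate transport and one-carbon metabolism, the pathway of Folr1, 0 of 9 were called, 5 lay above 0 and the median was 0.03. Slc19a1, the reduced folate carrier, named after its values were seen, had 2061 and 1162 in APPSw 1 and 2, against 1269 and 1291 in controls 1 and 2. Other folate carriers of the list, Folr2 and Slc46a1, were under the filter and are also named after their values were seen. Each was lower on both APPSw arrays than on both controls, as were 19% of the probe sets above the filter. Folr2, folate receptor beta, had 271.8 and 237.5 in APPSw 1 and 2, against 796.2 and 945.6 in controls 1 and 2. Slc46a1, the proton-coupled folate transporter, had 417.0 and 428.2 in APPSw 1 and 2, against 730.9 and 565.6 in controls 1 and 2. The folate carriers thus did not share an order of arrays. The brightest genes of the list, Ahcy and Shmt2, enzymes of methyl and serine metabolism, differed by 0.03 and -0.04.

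For klotho, FGF23 and mineral handling, 0 of 7 genes were called and the median was 0.10. Fgfr2, a growth factor receptor, differed by 0.24, Slc20a1, a phosphate carrier, by 0.099, and Sgk1, a hormone-induced kinase, by 0.34. Among carbonic anhydrases and fluid secretion genes, 0 of 14 were called, 7 lay above 0, the median was 0.01 and 10 were brightest on APPSw 1 (27.2% of all probe sets were). Car2, the abundant cytosolic carbonic anhydrase, had 28721 and 23542 in APPSw 1 and 2, against 24146 and 28232 in controls 1 and 2, a difference of -0.0059. Slc12a2, the sodium-potassium-chloride cotransporter, had 10600 and 8029 in APPSw 1 and 2, against 8141 and 7916 in controls 1 and 2, a difference of 0.20. Wnk1, a kinase that governs such transporters, differed by -0.43 (SE 0.17, limma adjusted p = 0.612).

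In the renin-angiotensin and kinin list of Ace, 0 of 8 were called, 2 were brightest on APPSw 1 and the median was 0.07. Agt, angiotensinogen, had 2988 and 3104 in APPSw 1 and 2, against 3163 and 2734 in controls 1 and 2, a range far narrower than that of Ace. Mas1, the angiotensin fragment receptor, differed by -0.19. In the lipopolysaccharide sensing list of Lbp, 0 of 9 were called, 2 were brightest on APPSw 1 and the median was 0.0098. Rela, an NF-kappa-B subunit, differed by 0.03, and Nfkbia, its inhibitor, by 0.0098.

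For relatives of Msx1 and Six2 and genes of roof-plate development, 0 of 15 were called and the median was 0.15. Of the 15, 11 lay above 0 (3927 of 7453 probe sets did) and 9 were brightest on APPSw 1 (27.2% of probe sets were). Id2 and Id3, inhibitors of basic helix-loop-helix factors, differed by 0.10 and 0.41, and Eya1, which encodes a cofactor of Six2 and its relatives, by 0.20. For calmodulin and related genes, the list of Calml4, 0 of 13 were called, 4 were brightest on APPSw 1 and the median was -0.03. Camk2b, a calmodulin-dependent kinase, differed by -0.28, Ppp3ca, the calcineurin catalytic subunit, by -0.37, and Pvalb, parvalbumin, by 0.21.

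**Figure D4:**
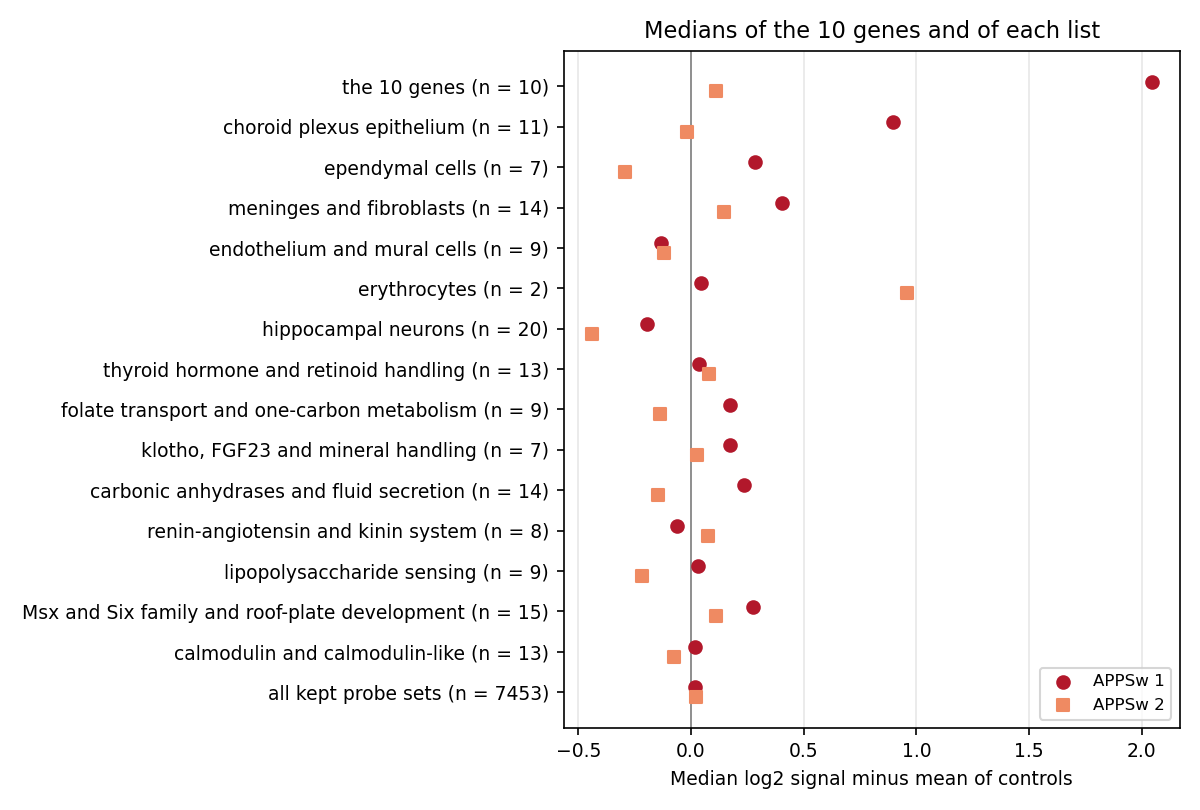
Median log2 signal minus the control mean on APPSw 1 (circles) and APPSw 2 (squares) for the 10 genes, each list of other genes and all 7453 probe sets above the filter, with the number of genes behind each. The 10 genes stand at 2.04 on APPSw 1 and 0.11 on APPSw 2, the choroid plexus list at 0.90 and -0.02, and the other 13 lists between -0.20 and 0.40 on APPSw 1.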

How the data were processed

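RNA of 4 hippocampi was measured on 1-colour Affymetrix arrays. The deposited values are linear signal intensities, which the authors computed in MAS 5.0 with a scaling target of 2500, per the labels. Background settings, labelling and detection calls are not stated there. Of 12488 probe sets, 66 controls were left out. Genes were named from the platform annotation where a probe set had 1 symbol, and all 10 genes matched the RefSeq table (GRCm38.p6) by gene ID. A gene is represented by its brightest probe set. Probe sets whose mean log2 signal was under the 40th percentile (a geometric mean of 565) were left out of comparisons across genes, which kept 7453. The fit on log2 signals, APPSw minus control, used limma 3.58.1 (R 4.3.3) with eBayes, two-sided p-values, Benjamini-Hochberg adjustment over the 7453 and a threshold of 0.05. It was tested on simulated data in which changed probe sets moved alike on both APPSw arrays. Those runs do not cover 1 APPSw array that stands apart, as for Ttr. SD is between arrays of a group, on the signal scale or, where pooled, on log2.

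The 10 genes and the lists were chosen with earlier results of these data known. Genes named are the 10, the 8 nearest to Ttr, and the brightest of each list, whatever their difference, and others are marked as chosen after their values were seen. P-values measure the spread between these arrays, which may be technical. Each of these was tried as an alternative: leaving out an array, a block for the replicate number, averaging all probe sets of a gene, a pseudocount or a floor of 250, quantile normalization, a trended prior variance, and filtering at the 60th percentile or not at all. Groups of 2 arrays are too few to look for outlying arrays by rule.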

Additional observations from a re-analysis of the deposited data

How the results depend on the processing

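The limma fit called 0 probe sets in every alternative run, with 402 to 816 at an unadjusted p under 0.05 and 600 as reported. That includes the replicate number as a block (559), where the median difference of the 10 genes was 0.98 as before. The deviations of arrays with equal numbers correlated at -0.020, so no shared shift was seen in the signals. This does not show whether the mice were paired. Leaving out 1 array in turn, the median difference of the 10 genes ranged from 0.11 (without APPSw 1) to 2.04 (without APPSw 2), and that of the choroid plexus markers from -0.016 (without APPSw 1) to 0.90 (without APPSw 2), so APPSw 1 decides both. The other settings gave 0.84 to 0.98 and 0.35 to 0.46. Without APPSw 1, Ttr, Kl and Car14 changed sign. Ace changed sign without APPSw 2, with the floor, with the pseudocount and with the mean of its probe sets. With the filter at the 60th percentile 4 of the 10 genes were left and 4 were brightest on APPSw 1; in each other setting that kept APPSw 1 all 10 were.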

Other observations

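Of the 29 probe sets above the filter that were at least 2-fold brighter on APPSw 1 than on every other array, 8 belong to the 10 genes and 4 to the choroid plexus list (Igf2, Igfbp2, Slc16a8 and a dimmer probe set of Slc31a1). Another 10 name a single gene: Cdkn1c, Gh, Prl, Pspn, Ube2c, Col9a3, Slc6a18, Ddx27, Tmem129 and Rbck1. All of these genes outside the 10 were singled out by this count, after their values were seen, although some are also named by rule. Col9a3, a cartilage collagen chain, had 6043 and 2117 in APPSw 1 and 2, against 1895 and 2270 in controls 1 and 2. Slc6a18, a neutral amino acid transporter, had 1638 and 337.5 in APPSw 1 and 2, against 649.1 and 701.4 in controls 1 and 2. Its mean log2 signal without APPSw 1 was below the filter, so it passed only with that array. The same holds for Ace, Six2, Cdkn1c, Prl and Ube2c among the 29, so the count is a description. The remaining 7 probe sets have no single gene symbol. The brightest of them had 71843 and 8416 in APPSw 1 and 2, against 20771 and 11841 in controls 1 and 2.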
